A study of Mus musculus with 4 samples.

Results

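Keratins are the intermediate filament proteins of epithelial cells, and 9 of their genes, taken by name, are described here out of 22005 gene symbols in 4 mouse libraries. Krt8, Krt18, Krt19, Krt7 and Krt20 encode keratins of simple, single-layered epithelia, and Krt5, Krt15, Krt4 and Krt13 encode keratins of basal and stratified epithelia. In the lung all 9 were listed in both tables, and in the small intestine 7 were, without Krt5 and Krt13.

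Keratin filaments are built from pairs of one type I chain (here Krt13, Krt15, Krt18, Krt19 and Krt20) and one type II chain (here Krt4, Krt5, Krt7 and Krt8). Krt8 with Krt18 is the pair of simple epithelia such as gut and alveolar lining. Krt5 is a mark of airway basal cells, the stem cells of the conducting airways, and Krt4 with Krt13 marks the upper layers of wet stratified epithelia and the hillock cells of the trachea.

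RNA was counted by droplet sequencing (Chromium Single Cell 3′ v3) in C57BL/6J mice, an inbred strain, from small intestinal epithelium and from whole lung after mechanical and enzymatic dissociation. Each tissue gave 1 library of multiplets, which are clusters of attached cells, and 1 library of singlets. No treatment or mutation is named, the labels name no separate animals, and nothing in the sources used here says how multiplets were set apart from singlets. A unique molecular identifier (UMI) is counted once per captured transcript end, so levels were not divided by transcript length, and a level is given in CPM, the UMIs of a gene relative to all UMIs of its library or class.

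The small intestinal multiplets held 3671 barcodes with 50645279 UMIs and the singlets 5279 barcodes with 47764845 UMIs. The lung multiplets held 4729 barcodes with 66277622 UMIs and the singlets 6084 barcodes with 56639425 UMIs. Median depth per barcode was 12603 UMIs in intestinal multiplets against 8759 in singlets, and 11934 in lung multiplets against 7896 in singlets. Only 4 intestinal and 2 lung barcode sequences were shared by the multiplet and singlet tables of a tissue. The cell classes are the authors' labels for singlets. Of 5 markers set for each class with a marker list, all 5 were highest in their own class except in Fibroblast-1 (1 of 5) and in Fibroblast-2, T-cell, Macrophage and Alveolar Macrophage (4 of 5 each). The fibroblast classes shared a list, so a marker highest in Fibroblast-2 could not be highest in Fibroblast-1. The classes label the same barcodes whose counts are compared, so levels by class are a description. With 1 library per group no test was possible, all intervals (exact Poisson for levels, exact Clopper-Pearson for shares, conditional binomial for ratios, at 95%) cover counting error only, and a ratio was called higher or lower by size alone, past 1.5-fold with at least 50 UMIs in either library. A gene that passes this limit in 1 library alone cannot be called higher in the other library.

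Of the 9 genes, 5 lie on chromosome 15 and 4 on chromosome 11 (GENCODE vM21, GRCm38, which is mm10). On chromosome 15 they are Krt7 (101411043 to 101430313, plus strand), Krt5 (101707070 to 101712898, minus strand), Krt4 (101918535 to 101924735, minus strand), Krt8 (101996698 to 102004482, minus strand) and Krt18 (102028180 to 102032027, plus strand). Krt18 is a type I gene that lies beside Krt8 in the type II cluster, with 23697 bases between them. On chromosome 11 they are Krt20 (99428403 to 99438150), Krt13 (100117327 to 100121566), Krt15 (100131758 to 100135928) and Krt19 (100140810 to 100148665), all on the minus strand, with 10191 bases between Krt13 and Krt15 and 4881 between Krt15 and Krt19.

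RefSeq promoter windows (GRCm38.p6) were matched by symbol for 6 of the 9 genes. The 100 bases before the start are shown for a basal keratin, a hillock keratin and 2 simple keratins, because the 2 stratified ones share a stretch with Krt20 that Krt7 lacks in these bases. Those of Krt8 and Krt18 are not shown, since 100 of them in Krt8 and 36 in Krt18 lie in annotated UTR. Capitals mark matches, on the printed strand, to ATAAAAGG or TATAAA, which overlap in Krt20. The motifs were chosen after the sequences were seen, and both strands were searched. The printed Krt7 bases end in the opening letters of ATAAAAGG, and the 300-base window of Krt7 holds a match. Its lack of a match here therefore depends on the stretch taken. The printed Krt7 bases also lie inside the gene as placed above, past its start at 101411043, and not before that start.
Krt5 (chr15:101712906-101713005, minus strand): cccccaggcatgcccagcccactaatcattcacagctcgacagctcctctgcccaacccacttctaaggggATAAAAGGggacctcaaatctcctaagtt
Krt13 (chr11:100121567-100121666, minus strand): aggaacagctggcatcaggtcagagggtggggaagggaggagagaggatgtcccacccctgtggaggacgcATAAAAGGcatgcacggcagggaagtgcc
Krt20 (chr11:99438154-99438253, minus strand): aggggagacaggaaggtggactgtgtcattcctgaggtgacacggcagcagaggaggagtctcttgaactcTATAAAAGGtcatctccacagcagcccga
Krt7 (chr15:101412303-101412402, plus strand): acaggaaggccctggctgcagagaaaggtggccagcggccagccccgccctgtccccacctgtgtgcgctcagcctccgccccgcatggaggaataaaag

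ATAAAAGG occurred in the 100 bases of Krt5, Krt13 and Krt20, which is 3 of the 4 genes shown and 3 of 6 with Krt8 and Krt18, whose bases are in part or wholly UTR, against 0.846% of 32851 RefSeq windows of that length. In the whole windows of 300 bases it occurred in 4 of 6, Krt7 included, against 1.76% of all windows. TATAAA occurred in 1 of 6 in the 100 bases (Krt20) against 5.56% of all windows, and in 2 of 6 in 300 bases against 13.6%. The match began 29 bases before the start in Krt5 and Krt13 and 28 before it in Krt20. A match describes letters in these windows only.

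In the small intestine the simple keratins carried nearly all keratin UMIs, and their levels were ordered differently from class to class. Krt8, the main type II keratin of the gut, had 3359 CPM in multiplets and 3301 CPM in singlets. Among singlet classes it was highest in Progenitor late-2 (10229 CPM, 10076 to 10384), then Tuft (7862), Progenitor late-1 (6086), Progenitor early (3182), Goblet (2861), Enteroendocrine (2654), Transit amplifying (2345), Enterocyte (2252), Stem (1110) and Paneth (345). Only Transit amplifying and Enterocyte, next to each other in this order, had overlapping intervals. Krt8 was found in at least 94.3% of the barcodes of every class, so the classes differed in amount rather than in presence.

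Krt18, the type I partner of Krt8, had 911 CPM in multiplets and 1035 CPM in singlets. It was highest in Tuft cells, the chemosensory cells of the gut, at 8370 CPM (8157 to 8586), with 42 UMIs in the median barcode. Goblet cells followed at 2386 CPM and Enteroendocrine cells at 1175 CPM. The lowest classes were Progenitor late-1 with 379 CPM and Enterocyte with 69.4 CPM (58.3 to 81.9). In Enterocyte 34.6% of barcodes had a UMI at a median depth of 11039 UMIs. Stem cells had 837 CPM, Progenitor late-2 744, Progenitor early 679, Transit amplifying 539 and Paneth 438.

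Krt19, a type I keratin of crypt and duct epithelia, ran the other way. It had 2143 CPM in multiplets and 2206 CPM in singlets, and was highest in Progenitor late-2 (7578 CPM, 7446 to 7711) and Progenitor late-1 (4930 CPM). Progenitor early had 2471 CPM, Transit amplifying 1772 and Enterocyte 1295. Goblet (1030) and Stem (1009) had overlapping intervals, and Enteroendocrine (632), Tuft (232) and Paneth (141) were lowest. In Tuft cells 31.2% of barcodes had a Krt19 UMI at a median depth of 6107 UMIs, while all 112 had a Krt18 UMI.

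The type I keratin that went with Krt8 differed between classes. Krt18 made up 50.1% and Krt19 1.39% of the 11802 UMIs of the listed keratins in Tuft cells. In Progenitor late-1 the order was turned, with 3.19% Krt18 and 41.5% Krt19 of 78968 UMIs. The summed type II UMIs over the summed type I UMIs was 1.09 in multiplets and 1.03 in singlets, and it ran between 0.694 in Paneth and 1.40 in Enteroendocrine cells. The lowest were Paneth and Stem (0.695), and 6 of the other 8 classes lay between 0.922 and 1.10.

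**Figure D1:**
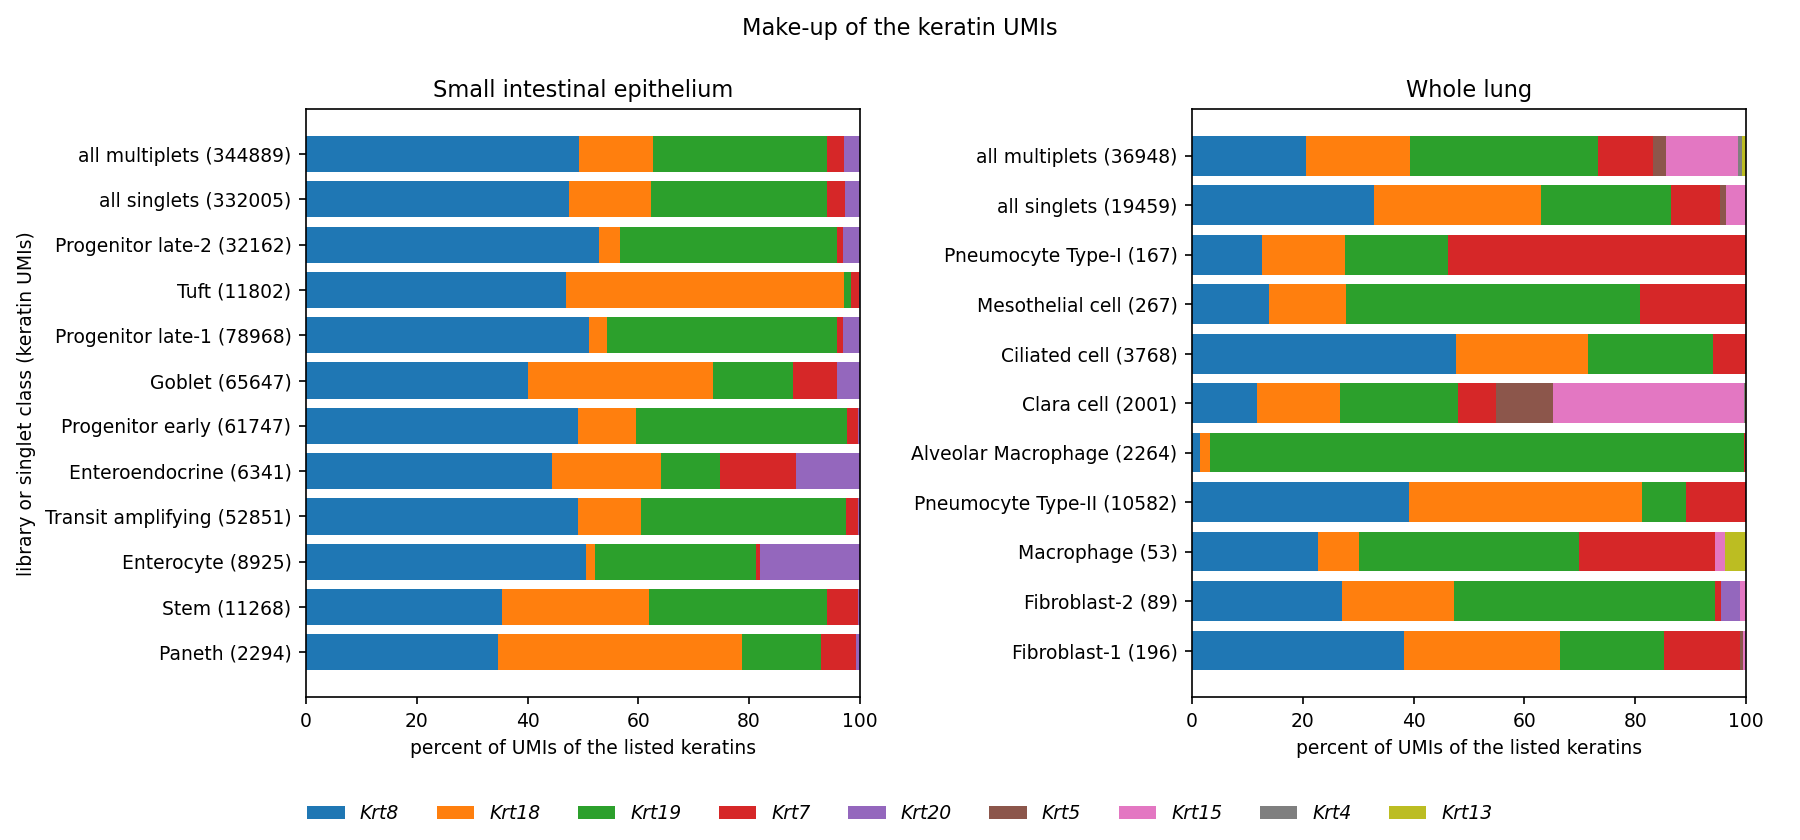
Share of the UMIs of the listed keratins (x axis, percent) taken by each gene, in all multiplets, all singlets and singlet classes with at least 50 keratin UMIs (y axis, keratin UMIs in brackets), for small intestine (left) and lung (right). Krt18 takes 50.1% in Tuft cells and 3.19% in Progenitor late-1, and Krt19 takes 96.3% in Alveolar Macrophages.

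Krt7, a type II keratin of ductal and secretory epithelia, had 198 CPM in multiplets and 224 CPM in singlets. It was highest in Enteroendocrine cells with 826 CPM (772 to 882) and Goblet cells with 566 CPM (551 to 582), while Paneth cells, also secretory, were at 62.4 CPM (52.6 to 73.4). Tuft (238), Progenitor late-2 (209) and Stem (177) followed, with overlapping intervals between neighbours, and Enterocyte was lowest at 36.4 CPM. It made up 13.8% of the UMIs of the listed keratins in Enteroendocrine cells and 0.818% of those in Enterocytes.

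Krt20, a type I keratin of mature gut epithelium, had 198 CPM in multiplets and 183 CPM in singlets. It was highest in Enterocyte at 800 CPM (761 to 840), found in 96.9% of barcodes at a median depth of 11039 UMIs. Stem cells were lowest at 2.79 CPM, with 1.19% of barcodes at a median depth of 6198 UMIs. Enteroendocrine cells reached 685 CPM with a UMI in only 52.6% of barcodes, and after thinning every barcode to 1000 UMIs the shares were 51.3% in Enterocyte and 34.3% in Enteroendocrine cells. The Enteroendocrine median depth was 5643 UMIs.

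The stratified keratins were near absent from the small intestine. Krt15, a type I keratin of basal cells, had 83 UMIs in multiplets and 109 in singlets. In singlets it was found most in Stem (6.42 CPM, 23 UMIs) and Transit amplifying cells (4.97 CPM, 55 UMIs), whose intervals overlapped, and had 0 UMIs in Enteroendocrine, Tuft and Paneth cells, which allows up to 2.83, 4.25 and 1.30 CPM. Krt4, a type II keratin of stratified epithelia, had 10 UMIs in each library, each in a different barcode.

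**Figure D2:**
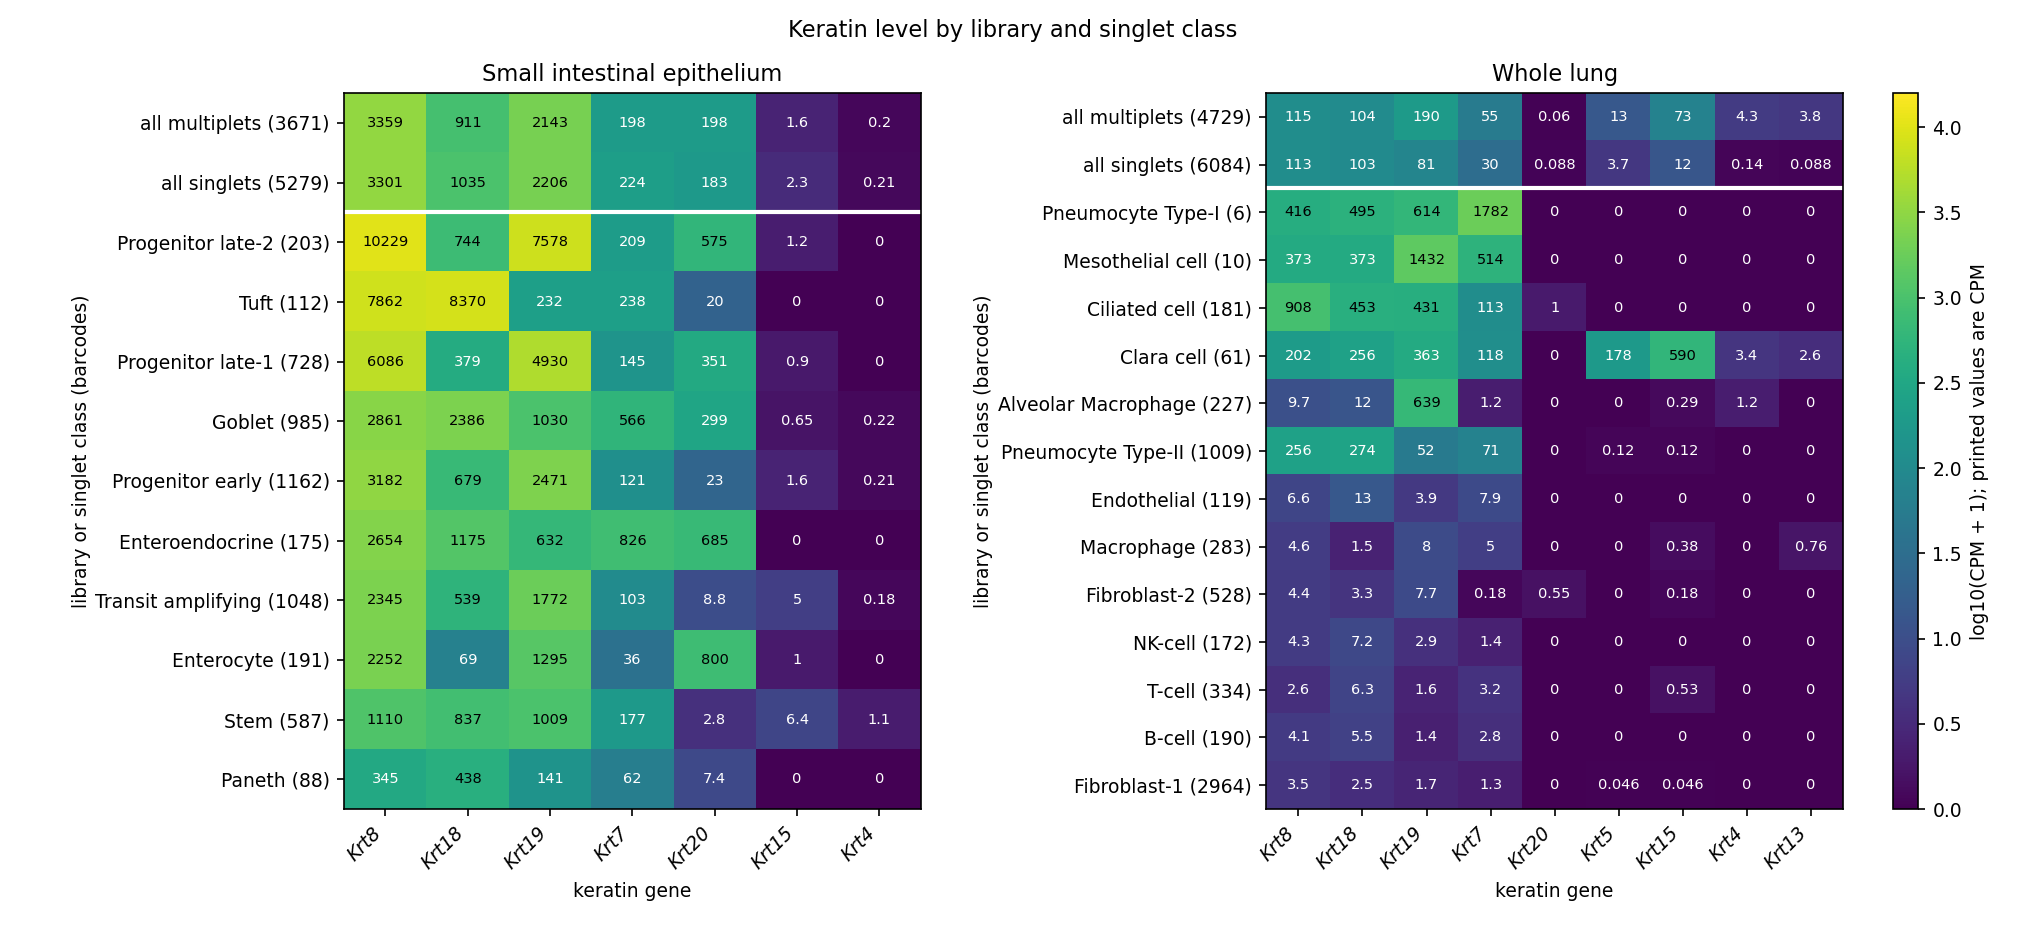
Level of each keratin (x axis) in all multiplets, all singlets and each singlet class (y axis, barcodes in brackets), coloured by log10(CPM + 1) with the CPM printed, for small intestine (left) and lung (right). Krt8 spans 345 CPM in Paneth to 10229 CPM in Progenitor late-2, and in the lung Krt5 and Krt15 stand out in the Clara cell class alone.

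Set against singlets, small intestinal multiplets held the keratins at nearly the same levels. The multiplet over singlet ratio of CPM was 1.02 for Krt8 (1.01 to 1.02), 0.880 for Krt18 (0.869 to 0.891), 0.972 for Krt19 (0.963 to 0.980), 0.884 for Krt7 (0.860 to 0.909), 1.08 for Krt20 (1.05 to 1.12) and 0.718 for Krt15 (0.533 to 0.964). The summed keratins had 6810 CPM in multiplets and 6951 CPM in singlets, a ratio of 0.980. The median log2 ratio of all genes was -0.10. With TMM scaling that median was 0.0032, Krt19 stood at 1.04 and the sum at 1.05. Of the 6 members with enough UMIs, 0 were called in either direction. Among all 11674 genes counted, 1.42% were called higher and 3.87% lower. In such libraries a different share of cells of a class and a different amount of RNA per cell cannot be told apart.

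A list of keratin partners and adhesion holds genes of desmosomes and hemidesmosomes, to which keratin filaments attach, and others such as Fbf1, Tchp and Pnn. In the small intestine 0 of its 17 counted members were called. Among all genes there, only 1.42% were higher and 3.87% lower. The count is near these shares, so nothing is read from it about the genes of this list. Their median log2 ratio was -0.01 against -0.10 for all genes. Desmoplakin (Dsp), which anchors keratin to the desmosome, had 124 CPM in multiplets and 126 CPM in singlets. Of 9 counted genes that mark positions from crypt to villus, 1 was higher and 2 were lower, the crypt base genes Olfm4 (ratio 0.508) and Lgr5 (0.554). Apoa4, a gene of the villus tip, was the higher one at 1.53.

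Simple keratin UMIs were spread over many barcodes in the small intestine. The 10 barcodes with the most Krt8 UMIs held 1.51% of them in multiplets and 1.10% in singlets, and the 10 richest in Krt18 held 2.86% in multiplets and 2.81% in singlets. For Krt19 these shares were 1.72% in multiplets and 1.16% in singlets, for Krt7 1.83% in multiplets and 1.57% in singlets, and for Krt20 2.86% in multiplets and 2.63% in singlets. The 10 deepest barcodes held 0.918% of all UMIs in multiplets and 0.897% in singlets. Krt15 was in 76 multiplets and 92 singlets, with at most 2 and 4 UMIs in one barcode.

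In the lung the simple keratins were found in epithelial and mesothelial classes, with 1 exception. Krt8 had 115 CPM in multiplets and 113 CPM in singlets. It was highest in Ciliated cells at 908 CPM (866 to 951), then Pneumocyte Type-I (416), Mesothelial (373), Pneumocyte Type-II (256) and Clara cells (202), and at most 9.67 CPM in every other class. The intervals of Pneumocyte Type-I, Mesothelial and Pneumocyte Type-II cells overlapped between neighbours. The classes Pneumocyte Type-I and Mesothelial hold only 6 and 10 barcodes, so their levels rest on few cells. Clara is the older name of the club cell, the secretory cell of the small airways.

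Krt18 had 104 CPM in multiplets and 103 CPM in singlets, with 495 CPM in Pneumocyte Type-I (320 to 731), 453 in Ciliated, 373 in Mesothelial, 274 in Pneumocyte Type-II and 256 in Clara cells. Neighbours among these 5 all had overlapping intervals, and no other class passed 13.2 CPM. Krt8 and Krt18 were found together in 164 of 181 Ciliated barcodes and in 812 of 1009 Pneumocyte Type-II barcodes, and in 5 of 227 Alveolar Macrophages. Krt7 had 54.6 CPM in multiplets and 30.2 CPM in singlets. It was highest in Pneumocyte Type-I, the flat cell of gas exchange, at 1782 CPM (1433 to 2190), and then in Mesothelial cells at 514 CPM. Clara (118) and Ciliated cells (113) overlapped, and Pneumocyte Type-II had 70.8 CPM.

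Krt19 had 190 CPM in multiplets and 80.9 CPM in singlets, and it was the simple keratin found in a class outside the epithelia, the Alveolar Macrophage, which is the phagocyte of the air spaces. Mesothelial cells were highest at 1432 CPM (1023 without the barcode richest in Krt19), and Alveolar Macrophages followed with 639 CPM (613 to 667), above Ciliated (431), Clara (363) and Pneumocyte Type-II cells (52.1) and overlapping Pneumocyte Type-I (614), which also overlapped Ciliated. Of 227 Alveolar Macrophages, 218 had a Krt19 UMI, which is 96.0% at a median depth of 14028 UMIs, with 7 UMIs in the median barcode. Fibroblast-1, which should lack Krt19, had a UMI in 1.25% of barcodes at a median depth of 6562 UMIs, and Macrophage in 1.06% at 8574 UMIs. At 1000 UMIs per barcode the shares were 45.4% in Alveolar Macrophages and 0.135% in Fibroblast-1.

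Alveolar Macrophages held Krt19 nearly without the other listed keratins. Of their 2264 UMIs of the listed keratins, 96.3% were Krt19, with Krt8 at 9.67 CPM and Krt18 at 12 CPM. Krt79, which is not among the listed keratins, was at 473 CPM in the same singlets. The summed type II over type I UMIs of the listed keratins was 0.0184. In Pneumocyte Type-II that ratio was 1.0 and in Ciliated cells 1.15. For each 1000 UMIs of Sftpc, the surfactant gene of type II cells whose RNA was found in every lung class, Alveolar Macrophages held 119 UMIs of Krt19 and Pneumocyte Type-II cells 0.236. Krt8 was at 1.81 and 1.16 per 1000 Sftpc UMIs in these 2 classes.

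The stratified keratins of the lung were nearly all in the Clara cell class. Krt5 had 13.2 CPM in multiplets and 3.73 CPM in singlets, and 208 of its 211 singlet UMIs were in Clara cells, in 15 of 61 barcodes (178 CPM, 155 to 204; 138 without the richest barcode). Krt15 had 72.7 CPM in multiplets and 12.3 CPM in singlets, and 689 of its 696 singlet UMIs were in 22 of the 61 Clara barcodes (590 CPM, 546 to 635). In Fibroblast-1, 1 of 2964 barcodes had a Krt5 UMI and 1 had a Krt15 UMI. Median depth was 16654 UMIs in Clara cells and 6562 in Fibroblast-1. Krt4 and Krt13 had 8 and 5 UMIs in all lung singlets, of which 4 and 3 were in Clara cells and 4 of Krt4 were in Alveolar Macrophages. Krt20 had 4 UMIs in multiplets and 5 in singlets.

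The Clara cell barcodes fell into differing kinds by their counts, which bears on what the class label covers. In the 15 with a Krt5 UMI, Krt15 was found in all 15 with a median of 30 UMIs (3155 CPM). Of these barcodes, 13 had a UMI of the basal cell regulator Trp63 and 15 had one of the water channel Aqp3. Their Scgb1a1, the main secretory product of club cells, had a median of 8 UMIs, with a lowest of 3 and a highest of 212 (2157 CPM). In the 46 without a Krt5 UMI, Krt15 was found in 7 (64.9 CPM), Trp63 in 1 and Aqp3 in 3, and Scgb1a1 made up 609738 CPM. The split uses Krt5 itself, so no test was made of it.

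**Figure D3:**
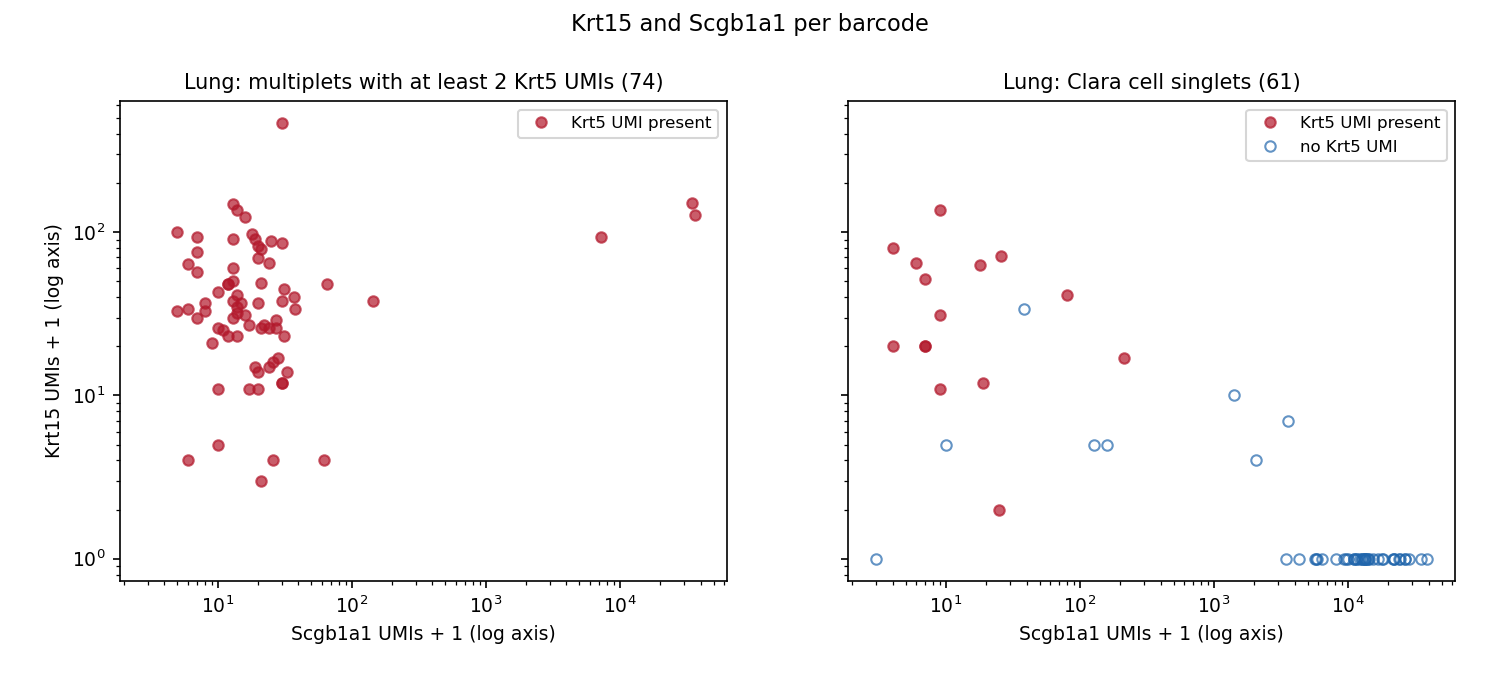
Krt15 UMIs + 1 (y axis, log scale) against Scgb1a1 UMIs + 1 (x axis, log scale) per barcode, for 74 lung multiplets with at least 2 Krt5 UMIs (left) and 61 Clara cell singlets (right), with filled points for barcodes with a Krt5 UMI and open points for those without. Filled points run from 1 to 465 Krt15 UMIs and sit mostly at low Scgb1a1, with 3 multiplets at 7178 to 36144 Scgb1a1 UMIs.

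In lung multiplets 6 of 8 counted keratins were higher than in singlets and 0 were lower, where 15.9% of 15098 genes were higher and 13.8% lower. Without the barcode richest in Krt13 these were 5 of 7, since Krt13 then had under 50 UMIs in either library. Krt4 (287 UMIs in multiplets, 8 in singlets) and Krt13 (249 in multiplets, 5 in singlets) passed the limit only in multiplets, so neither could be called lower. Krt8 (7605 UMIs in multiplets against 6395 in singlets) and Krt18 (6897 in multiplets against 5845 in singlets) were not called, with ratios of 1.02 (0.983 to 1.05) and 1.01 (0.974 to 1.04). Krt19 was 2.35 times as high (2.27 to 2.43) on 12592 UMIs in multiplets and 4583 in singlets. Krt7 was 1.81 times as high (1.71 to 1.92) on 3621 UMIs in multiplets and 1711 in singlets.

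The basal keratins differed more. Krt5 had 875 UMIs in multiplets and 211 in singlets, a ratio of 3.54 (3.05 to 4.14), and Krt15 had 4818 UMIs in multiplets and 696 in singlets, a ratio of 5.92 (5.46 to 6.41). Both stood higher when the 10 barcodes richest in each gene were left out of both libraries, at 19.97 for Krt5 and 23.5 for Krt15, because those barcodes hold 89.1% and 83.8% of the singlet UMIs. Barcodes with a Krt5 UMI were 91 of 4729 multiplets and 18 of 6084 singlets, and with a Krt15 UMI 146 multiplets and 29 singlets.

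Krt4 had 287 UMIs in multiplets and 8 in singlets, a ratio of 30.7 (15.4 to 71.7), and Krt13 had 249 UMIs in multiplets and 5 in singlets, a ratio of 42.6 (18 to 132). Both values rest largely on 1 multiplet barcode. Without it Krt4 stood at 100 UMIs in multiplets against 8 in singlets, a ratio of 10.7, and Krt13 at 32 against 5, a ratio of 5.48 (2.12 to 18) that is not called on so few UMIs. The other Krt4 UMIs were in 31 multiplets, against 6 singlets, and the other Krt13 UMIs in 28 multiplets, against 3 singlets. The summed keratins had 558 CPM in multiplets and 344 CPM in singlets, a ratio of 1.62 (1.60 to 1.65), and 1.56 without that barcode. Against only the 4770 singlets at least as deep as the shallowest multiplet it was 1.49, which is under the limit of 1.5-fold. With every barcode weighted equally Krt4 stood at 15.4 and Krt13 at 14.3.

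**Figure D4:**
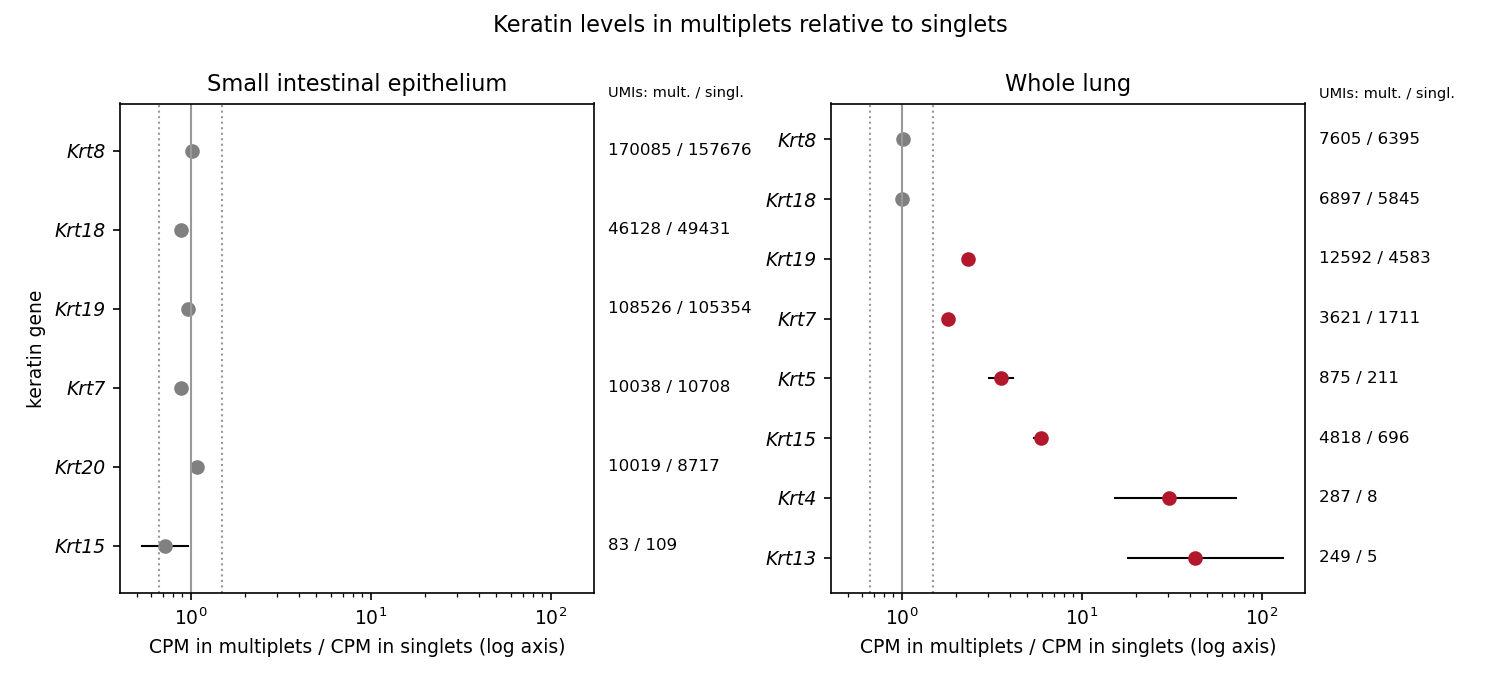
Multiplet over singlet ratio of CPM for each keratin (x axis, log scale), with bars for the interval of counting error at 95% and UMIs in multiplets and singlets at the right, for small intestine (left) and lung (right), where red marks calls and dotted lines mark 1.5-fold in both directions. The point of every counted intestinal keratin lies between the lines, while Krt19, Krt7, Krt5, Krt15, Krt4 and Krt13 lie above them in the lung.

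Markers of other lung classes moved in the same libraries, and their part in the keratin ratios was not tested. All 8 club cell genes, 9 of 10 mesothelial genes and 5 of 10 type I genes were higher in multiplets, Upk1b of the mesothelial list was lower (0.585), and 0 of 8 type II genes and 0 of 8 ciliated genes were called. Muc5b of the club list (34 singlet UMIs) and Bnc1 of the mesothelial list (20) passed the limit only in multiplets, so neither could be called lower. Among all counted lung genes, 15.9% were higher and 13.8% lower. The summed UMIs of the lists had ratios of 2.89 (club), 2.88 (mesothelial), 1.19 (type I), 0.714 (type II) and 0.865 (ciliated). The mesothelial gene Msln (12.7) and the type I gene Rtkn2 (4.65) had the highest ratios of their lists, while the type I gene Ager was at 0.958. Over the lung classes of at least 20 singlets, the class pattern of Msln was close to those of Krt5 and Krt15. Msln is thus not particular to the Mesothelial class. In a fit of each multiplet as a mixture of singlet class profiles, from 520 genes without keratins, Alveolar Macrophage was called in 19.8% of multiplets and made up 3.73% of singlets. For Mesothelial cells these shares were 2.28% of multiplets and 0.164% of singlets, for Pneumocyte Type-I 1.69% of multiplets and 0.0986% of singlets, for Clara cells 2.75% of multiplets and 1.0% of singlets, and for Ciliated cells 3.0% of multiplets and 2.98% of singlets. These are unlike measures, since a multiplet can be called for more than 1 class and a singlet has 1 label. Of fitted multiplet UMIs and of singlet UMIs, Alveolar Macrophage had 17.9% and 6.02%, and Mesothelial 2.09% and 0.175%. Pneumocyte Type-I had 0.946% and 0.0892%, Clara 6.13% and 2.06%, and Ciliated 2.67% and 3.49%.

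With all classes in the fit, the singlet profiles so mixed gave keratin totals close to those counted for the simple keratins. For Krt19, 13038 UMIs were predicted and 12592 counted (0.966), with 58.1% of the predicted UMIs from Alveolar Macrophage. Multiplets called as Alveolar Macrophage held 54.7% of all Krt19 UMIs and 23.8% of all UMIs of the library. The counted over predicted ratio was 1.11 for Krt8, 1.04 for Krt18 and 1.01 for Krt7. Without the classes of under 20 singlets it was 1.20 for Krt8, 1.17 for Krt18, 1.16 for Krt19 and 2.01 for Krt7. With all classes it was 1.21 for Krt5, 2.00 for Krt15, 10.3 for Krt4 and 12.4 for Krt13, so the mixture fell short of the counts of Krt15, Krt4 and Krt13. The Clara class mixes differing barcodes, and Krt4 and Krt13 had few singlet UMIs, but the cause of these gaps was not tested. In the small intestine the counted over predicted ratio lay between 0.763 for Krt15 and 1.07 for Krt8 and Krt20.

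Multiplets that the mixture placed in 1 class alone had keratin levels like those of the class for some genes and not for others. Krt19 was at 608 CPM in 611 multiplets called Alveolar Macrophage alone and 639 CPM in the 227 singlets, found in 97.1% of these multiplets and 96.0% of the singlets. Krt8 was at 257 CPM in 830 multiplets called Pneumocyte Type-II alone and 256 CPM in the singlets. Krt7 was at 1694 CPM in 26 multiplets called Pneumocyte Type-I alone and 1782 CPM in the 6 singlets. In the small intestine Krt19 was at 1800 CPM in 395 multiplets called Goblet alone and 1030 CPM in Goblet singlets, a ratio of 1.75. In contrast, Krt5 was at 19.98 CPM in 75 multiplets called Clara alone and 178 CPM in Clara singlets. Larger gaps were in 76 multiplets called T-cell alone, where Krt15 was at 788 CPM against 0.528 CPM in T-cell singlets. There Krt5 was at 213 CPM against 0, Krt19 at 184 against 1.58 and Krt8 at 89.6 against 2.64. Only 7.89% of these multiplets had a Krt15 UMI and 6.58% a Krt5 UMI.

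Lung keratins differed widely in how few barcodes held them. Krt13 had 217 of 249 multiplet UMIs in 1 barcode (87.1%), and Krt4 had 187 of 287 (65.2%) in that same barcode. The 10 richest barcodes held 92.4% of Krt13, 89.9% of Krt4, 38.6% of Krt5 and 35.8% of Krt15 in multiplets, and 100%, 100%, 89.1% and 83.8% in singlets. For the simple keratins these shares were 12.2% of Krt7, 10.1% of Krt8, 7.73% of Krt18 and 6.59% of Krt19 in multiplets, and 10.8%, 5.97%, 5.75% and 8.12% in singlets. It took 16 multiplets or 3 singlets to reach 50% of Krt5, 18 multiplets or 4 singlets to reach it for Krt15, and 300 multiplets or 129 singlets for Krt19. The 10 deepest barcodes held 1.33% of all UMIs in multiplets and 0.707% in singlets.

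**Figure D5:**
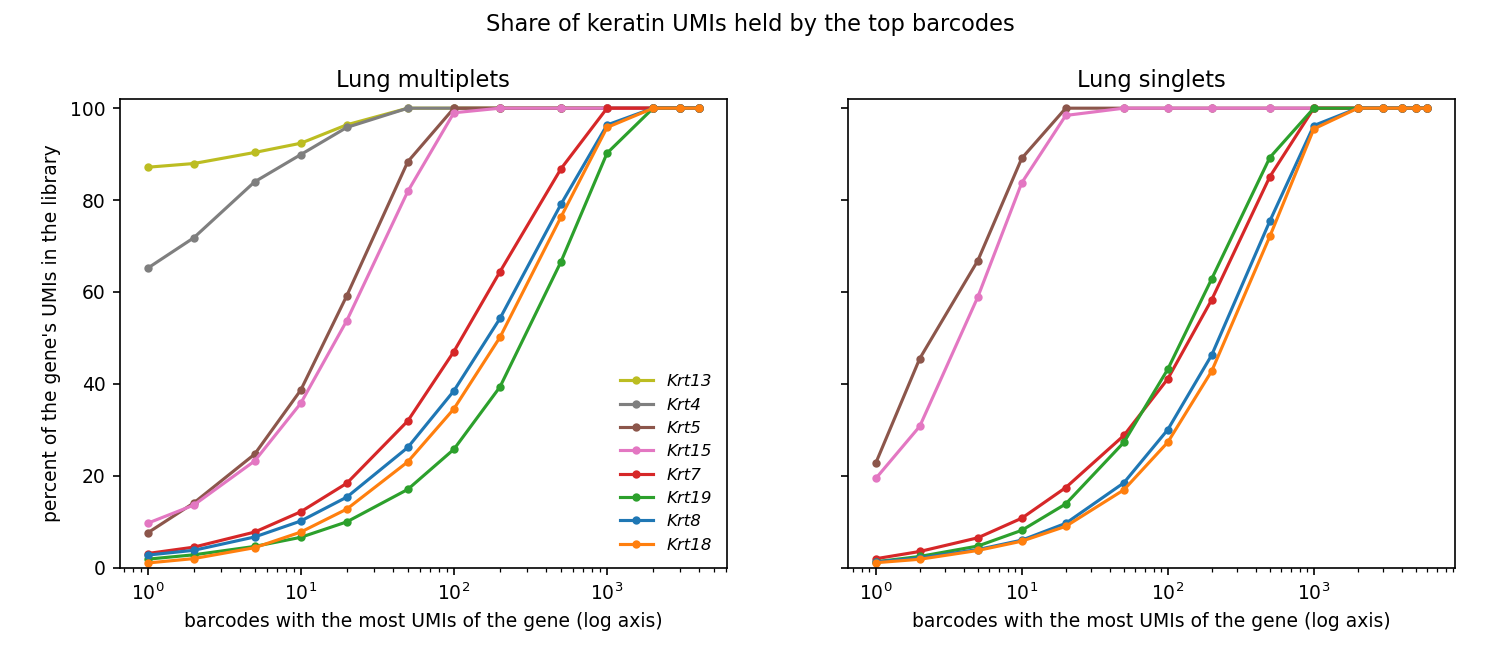
Percent of a keratin's UMIs (y axis) held by the barcodes with the most of them (x axis, log scale) in lung multiplets (left) and lung singlets (right), 1 line per gene, with Krt4 and Krt13 left out of the singlets for their low counts. A single barcode holds 87.1% of Krt13 and 65.2% of Krt4 in multiplets, while the lines of Krt8, Krt18, Krt19 and Krt7 rise together over many barcodes.

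The multiplet barcode with the most Krt13 held 70754 UMIs. Beside 217 UMIs of Krt13 and 187 of Krt4 it had 465 of Krt15, 231 of Krt19, 207 of Krt8, 111 of Krt7, 66 of Krt5, 25 of Krt18 and 0 of Krt20. The stratified genes outside the 9 were there too, with 159 UMIs of Sfn, 121 of Aqp3, 103 of Krt17, 93 of Krt14, 55 of the adhesion gene Perp and 21 of Ly6d, and Trp63 had 1. It also held 1878 UMIs of Sftpc, 253 of Scgb3a2 (a club cell secretoglobin) and 43 of Msln, and 1 of the leukocyte gene Ptprc. The mixture gave it 44.8% Pneumocyte Type-II, 18.6% Mesothelial and 10.3% T-cell, from reference classes of which none is a stratified cell.

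Among 74 multiplets with at least 2 Krt5 UMIs, Krt15 was found in all 74, with 2 as the lowest, 35 as the median and 465 as the highest UMI count. Aqp3 was found in 74, Sfn in 73, Trp63 in 63 and Krt17 in 58. Krt19 was in 73 of them, Krt7 in 71, Krt18 in 70 and Krt8 in 69, so simple and basal keratins were counted in the same barcodes. Krt4 was in 21, Krt14 in 6 and Krt13 in 4. Their Scgb1a1 had a median of 17.5 UMIs, and the 3 highest were 36144, 34347 and 7178, with the next at 142. The mixture called Clara in 26 of the 74 and T-cell in 24, and these calls are not read as contents, since no singlet class consists of such cells.

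The pairing of Krt5 with Krt15 was alike in both lung libraries. Of barcodes with a Krt5 UMI, 77 of 91 multiplets (84.6%) and 15 of 18 singlets (83.3%) had a Krt15 UMI. Krt4 was found with Krt15 in 25 of 32 multiplets and 2 of 6 singlets, and with Krt13 in 3 of 32 multiplets and 0 of 6 singlets. At 1000 UMIs per barcode, Krt5 and Krt15 were found together in 24 multiplets and 9 singlets.

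Of 15 counted genes that mark basal and squamous cells, 8 were higher in lung multiplets and 2 lower, where 15.9% of all counted lung genes were higher and 13.8% lower. Beside Krt14 and Krt17 the higher ones were Lgals7 (4.63), Aqp3 (4.32), Serpinb5 (4.10), Perp (2.29), Trp63 (2.10) and Dapl1 (1.64). Of the higher ones, Krt14 (3 singlet UMIs), Serpinb5 (24) and Lgals7 (17) passed the limit only in multiplets. None of these could be called lower. Krt14, a basal type I keratin, had a ratio of 43.0 (14.4 to 211) on 151 UMIs in multiplets and 3 in singlets, or 16.5 without the barcode richest in Krt13, and Krt17 one of 7.31, or 6.06. The lower ones were Krt10, a keratin of the outer epidermis (0.577), and Sprr1a, a gene of the cornified layer (0.270). The list's median log2 ratio was 0.71 against -0.05 for all genes. Of 17 counted genes of keratin partners and adhesion, 4 were higher, namely Dsc2 (2.61), Itga6 (2.50), Evpl (2.25) and Itgb4 (1.61). Dsc2 (17 singlet UMIs) and Evpl (47) passed the limit only in multiplets, so neither could be called lower. Ppl (0.537) and Col17a1 (0.543) were lower, and the median log2 ratio of the 17 was 0.14. The numbers called are near the shares of all lung genes (15.9% higher and 13.8% lower), so nothing is read from them about the genes of this list. Dsp was within 1.5-fold, with 14.6 CPM in multiplets and 13.3 CPM in singlets.

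Genes with class patterns most like each keratin were found by Pearson's r of log2(CPM + 10) over the classes of at least 20 singlets, given as a description with no p. In the small intestine (10 classes, 7795 genes, 1 library) they were led by Gdpd1 for Krt8 (r = 0.979), Mal2 for Krt19 (0.966), Acly for Krt7 (0.949), Myadm for Krt18 (0.941) and Lysmd3 for Krt20 (0.930). The 5 genes most like Krt18 also held Pkp1, a plaque protein of desmosomes (0.927). In the lung (11 classes, 9939 genes) they were led by Smim22 for Krt8 (0.996), Elf3 for Krt7 (0.993), Cdcp1 for Krt18 (0.993) and Perp for Krt19 (0.989). Krt5 and Krt15 each had the other among their 5. With the 2 small classes added, 0 of 5 genes were kept for Krt7, Krt8, Krt18 and Krt19 and 4 of 5 for Krt5 and Krt15, so most lung names depend on which classes enter. With a pseudocount of 1 the genes kept were 2 of 5 for Krt8 and 3 of 5 for each other keratin in the small intestine, and 1 of 5 for Krt8, 3 of 5 for Krt7 and Krt19, 4 of 5 for Krt18 and all 5 for Krt5 and Krt15 in the lung.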

How the data were processed

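Per the labels' protocols, RNA was measured with Chromium Single Cell 3′ v3 chemistry in 4 libraries of C57BL/6J mice, 1 of multiplets and 1 of singlets from each of 2 tissues. The authors deposited untransformed UMI counts for each symbol in each barcode, with a cell class per singlet and a quality flag per barcode that all counted barcodes passed. The submitters' processing notes name Cell Ranger 4.0.0 and mm10. The annotation, the filters and how the classes were made are not given in the sources used here, nor is how reads shared between near-identical keratin genes or pseudogenes were counted.

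UMIs were summed over the barcodes of a library or class and scaled to the 14982 (small intestine) or 19042 (lung) symbols shared by both tables of a tissue. Each multiplet was fitted as a Poisson mixture of singlet class profiles by expectation maximization, from up to 40 genes a class without any keratin (400 in the small intestine, 520 in the lung), and classes with a weight of 0.15 or more were called. Shares of barcodes were also taken after thinning to 1000 UMIs. No doublet was removed; Scrublet (scanpy 1.11.5) marked 1.61% of intestinal and 2.07% of lung singlets, and results without them were among the alternatives, with TMM scaling (edgeR 4.0.16, R 4.3.3), equal weight per barcode, the richest barcodes left out, deeper singlets and other count limits. Leaving out the barcode richest in Krt13 was added after the data were seen. Scripts used Python 3.11.15, numpy 2.4.6, scipy 1.17.1 and pandas 2.3.3, and were tested on simulated data. The genes named are the 9 keratins, members of the lists (other keratins, keratin partners, basal and squamous, mesothelial, type I, type II, club, ciliated, transitional alveolar, crypt to villus) and for each keratin the 5 genes of most like class pattern, from genes with at least 200 singlet UMIs and at least 20 CPM in 1 class, without Gm-numbered, Rik and mitochondrial genes. The members and lists were chosen with earlier results of these data known. Gene coordinates come from GENCODE vM21 and promoter windows from RefSeq (GRCm38.p6).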

Additional observations from a re-analysis of the deposited data

How the results depend on the processing

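No paired analysis was possible because each group has 1 library. Of 82 ratio values of single keratins under the alternatives listed, 82 kept their call and 77 stayed on the same side of 1. The 5 that crossed 1 were of keratins not called, namely intestinal Krt19 at 1.04 with TMM scaling against 0.972, lung Krt8 at 0.934 against deep singlets and 0.976 without its 10 richest barcodes, against 1.02, and lung Krt18 at 0.921 and 0.993 under the same changes, against 1.01. These 82 hold no value of lung Krt4 and Krt13 without their 10 richest barcodes, where singlets had no UMI left, and Krt13 lost its call without 1 barcode (32 UMIs in multiplets). The summed lung ratio of 1.62 was 1.68 with TMM scaling, 2.03 with equal weight per barcode, 1.56 without the 10 richest barcodes and 1.56 without the barcode richest in Krt13. It was 1.49 against singlets as deep as the shallowest multiplet, which ends its call. The summed intestinal ratio of 0.980 was 1.05 with TMM scaling. Counted over predicted keratin UMIs stood at 1.01 in the small intestine with 20 genes a class, against 1.03, and in the lung at 1.31 without the classes of under 20 singlets and 1.10 without Scrublet doublets, against 1.11. Of all genes, 166 were called higher in intestinal multiplets, and 90 with a limit of 200 UMIs, 613 with every gene seen in both libraries, 260 with TMM scaling and 309 with equal weight. The 452 called lower were 164 with 200 UMIs and 1328 with every gene, and the 2077 called lower in the lung were 3326 with every gene. The causes were not tested, apart from the number of genes or singlets that an alternative admits by construction. Limits of depth bear most on Krt4, Krt13 and Krt20 in the lung and Krt4 and Krt15 in the small intestine, which had at most 287 UMIs in a library, and on the Pneumocyte Type-I and Mesothelial classes.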

Other observations

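Other keratin genes of the lung also stood higher in multiplets, and the highest singlet levels of Krt79 and Krt80 were in classes that are not epithelial. Krt79 had 6009 UMIs in multiplets and 1660 in singlets, a ratio of 3.09 (2.93 to 3.27), and 1613 of the singlet UMIs were in Alveolar Macrophages (473 CPM), in 85.5% of barcodes at a median depth of 14028 UMIs, against 0.337% of Fibroblast-1 at 6562 UMIs. In 611 multiplets called Alveolar Macrophage alone it was at 503 CPM, in 87.6% of barcodes, so Krt79 was, with Krt19, a second keratin of that class in both libraries. Krt80 had 2193 UMIs in multiplets and 429 in singlets, a ratio of 4.37 (3.94 to 4.86). Of its singlet UMIs, 208 were in the Macrophage class (79.3 CPM) and 51 in Endothelial (67.1 CPM), found in 38.5% and 21.0% of barcodes, while 91 were in Pneumocyte Type-II (5.62 CPM) and 22 in Ciliated cells (11.1 CPM), and the 6 Pneumocyte Type-I singlets held 2 (39.6 CPM), and in multiplets called Endothelial alone it was at 189 CPM. Krt23 was within 1.5-fold in the lung, with 1465 UMIs in multiplets and 1746 in singlets. Of 8 other keratins counted in the lung, 4 were higher and 1 was lower, where 15.9% of all counted lung genes were higher and 13.8% lower. Among the higher ones, Krt14 passed the limit only in multiplets. In the small intestine 3 of 5 other keratins were lower in multiplets, namely Krt23 (472 UMIs in multiplets and 789 in singlets, ratio 0.564), Krt87 (0.525) and Krt31 (0.522), and 0 were higher. Krt87 (39 UMIs in multiplets) and Krt31 (31) passed the limit only in singlets, so neither could be called higher. Among all counted intestinal genes, 1.42% were higher and 3.87% lower.

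Of 9 counted genes of the transitional alveolar state, in which Krt8 is a known mark, 4 were higher in lung multiplets (Cldn4 at 3.56, Lgals3 at 2.32, Cdkn1a at 2.03 and Clu at 1.62) and 1 was lower, while Krt8 was at 1.02. Cldn4 (30 singlet UMIs) passed the limit only in multiplets, so it could not be called lower. Among all counted lung genes, 15.9% were higher and 13.8% lower. In the small intestine 0 of 7 counted transitional genes were called, where 1.42% of all counted genes were higher and 3.87% lower. There, 1 of 6 basal and squamous genes was higher, Ly6d, with 105 UMIs in multiplets and 5 in singlets, and of crypt to villus genes 1 of 3 was higher in the lung. Ly6d passed the limit only in multiplets in the small intestine, so it could not be called lower. The lists of lung classes had few members counted in the small intestine, with 1 of 1 club genes and 1 of 3 type II genes higher, 1 of 2 ciliated and 1 of 3 type II genes lower, and 0 of 4 type I and 0 of 2 mesothelial genes called.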
